A study of Mus musculus with 9 samples.

Results

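The mitosis genes described here are a list of 45 symbols of proteins that drive or carry out cell division, from cyclins and mitotic kinases to kinetochore, spindle and cytokinesis proteins. Membership was decided by name: a listed symbol was a member if the array's probe table gave it to a probe set, and the probe set with the highest mean over the 9 arrays stood for the gene. By that rule 43 of the 45 were found among 17097 measured genes, and Ccnb1 and Nuf2 were not matched. All 43 passed the filter on low values, which was set on the mean over all arrays at 4.16 log2 and kept 11969 genes.

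Cells build the mitotic machinery anew in each cycle. Most of its genes are nearly silent in resting cells, are transcribed late in the cycle, and their products are largely destroyed as the cell divides, so their transcripts serve as a measure of how many cells in a tissue are dividing. The bladder lining renews slowly, whereas MB49 is a mouse bladder carcinoma line that grows fast in the bladder wall. In a whole bladder, fewer dividing cells and less of a transcript in each of them cannot be told apart.

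All animals were female C57BL/6J mice. For tumours, the bladder was preconditioned with poly-L-lysine and MB49 cells were instilled on day 0. Alpha1-oleate, in which a peptide is bound to the fatty acid oleate, was instilled at 1.7, 8.5 or 17 mM. There were 5 instillations, first on day 3 and then every other day to day 11. The sham-treated tumour group was given PBS on that schedule, and bladders were collected on day 12. Mice without tumours received 17 mM alpha1-oleate and were sampled 24 h or 7 d later, or served as PBS controls. Experiment 1 holds 5 arrays (healthy PBS, sham-treated tumour and the 3 doses in tumours) and experiment 2 holds 4 (healthy PBS, sham-treated tumour, and the tumour-free bladders treated at 17 mM, 1 at each time). Healthy PBS and sham-treated tumour therefore have 2 arrays each, 1 per experiment, and every other group has 1. All tumours derive from a single cell line placed in the bladder, and nothing in the labels says whether arrays stand for separate animals, so the p-values reflect only how much these samples differ, which may be technical.

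Values are log2 RMA signals, and their number limits the precision. The experiments had been normalized apart (array medians 4.42 to 4.45 in experiment 1 and 4.20 to 4.24 in experiment 2), so plain differences are taken within an experiment. Fitted differences come from limma with the experiment as a block, which takes both pairs of PBS arrays into account, and a gene is called at an adjusted p under 0.05 (Benjamini-Hochberg over 11969 genes). The spread in that fit comes from the 4 PBS arrays alone, so p-values for a treated bladder do not measure how treated bladders vary. On the array labelled healthy, 17 mM, 24 h, each of the 43 mitosis genes lay between the healthy and the sham-treated tumour array of experiment 2. That order was held by 30.4% of all genes tested. The array is called by its label below, and the label was not tested. As the only array of its group it adds nothing to the fit of comparisons that do not use it. Their counts of members called (43 for tumour, 27 at 17 mM and 12 at 8.5 mM) therefore could not change when it was left out.

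Promoters of mitotic genes are known to carry CCAAT boxes, which bind NF-Y, together with a cell-cycle homology region (CHR), which binds the MuvB core of the DREAM complex. RefSeq sequences (GRCm38.p6) of the 250 bases before the start were matched for 37 of the 43 members. The first 4 in the order of the list that held both kinds of motif are shown. Each is written in the direction of its gene, and capitals mark CCAAT or its reverse complement ATTGG, and TTTGAA, its reverse complement TTCAAA, or the palindrome TTTAAA. The Top2a promoter (chr11:99024190-99024439, minus strand) holds 6 CCAAT boxes and 2 CHR-type elements, and that of Mki67 (chr7:135716380-135716629, minus strand) holds 3 and 2. Those of Cenpf (chr1:189688087-189688336, minus strand) and Cenpa (chr5:30666636-30666885, plus strand) hold 2 CCAAT boxes and 1 CHR-type element each.
Top2a: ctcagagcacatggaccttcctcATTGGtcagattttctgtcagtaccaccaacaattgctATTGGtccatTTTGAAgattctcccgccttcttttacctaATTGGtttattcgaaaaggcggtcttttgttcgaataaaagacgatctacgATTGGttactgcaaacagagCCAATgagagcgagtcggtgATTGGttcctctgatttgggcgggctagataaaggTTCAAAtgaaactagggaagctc
Mki67: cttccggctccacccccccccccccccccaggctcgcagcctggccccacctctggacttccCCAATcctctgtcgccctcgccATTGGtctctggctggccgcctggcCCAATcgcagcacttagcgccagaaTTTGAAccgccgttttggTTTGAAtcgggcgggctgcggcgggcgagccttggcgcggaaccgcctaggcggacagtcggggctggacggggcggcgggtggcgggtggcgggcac
Cenpf: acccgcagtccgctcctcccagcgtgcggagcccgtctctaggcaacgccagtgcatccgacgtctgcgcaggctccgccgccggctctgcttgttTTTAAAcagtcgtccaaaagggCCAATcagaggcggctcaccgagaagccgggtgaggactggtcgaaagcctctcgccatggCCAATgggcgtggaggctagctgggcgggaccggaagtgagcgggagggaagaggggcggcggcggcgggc
Cenpa: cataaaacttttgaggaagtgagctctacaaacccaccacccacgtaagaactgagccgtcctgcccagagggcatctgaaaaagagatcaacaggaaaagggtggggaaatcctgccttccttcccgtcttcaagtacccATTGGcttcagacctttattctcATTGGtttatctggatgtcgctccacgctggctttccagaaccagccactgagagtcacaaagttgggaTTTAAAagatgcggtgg

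A CCAAT box on either strand stood in 28 of the 37 promoters (75.7%), against 34.5% of 27025 promoters of the same length, and 18 (48.6%) held 2 or more, against 10.5%. A CHR-type element on either strand stood in 16 (43.2%), against 25.5%. By form, TTTGAA on either strand stood in 12 (32.4%), against 16.3%. TTTAAA stood in 5 (13.5%), near the 12.1% of all promoters. Both kinds stood together in 14 (37.8%), against 9.0%. Of the 62 CCAAT boxes 42 began within 100 bases of the start, as did 12 of the 21 CHR-type elements. The 14 members with both had a median tumour difference of 5.08 log2 in experiment 1 and 4.30 in experiment 2, and the 23 others with a sequence had 4.02 and 3.19. At 17 mM their median differences were near each other, -1.66 and -1.69. These matches are letters in a window, and binding was not measured.

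**Figure D1:**
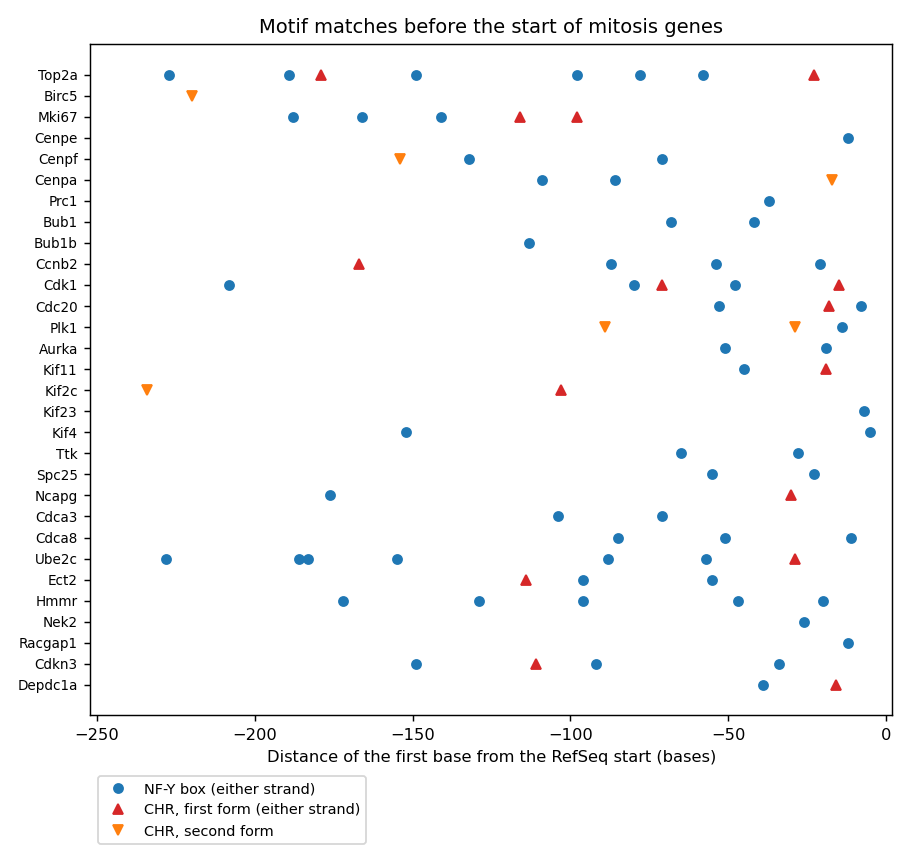
Positions of motif matches in the 250 bases before the RefSeq start, for the members with at least 1 match (x axis, distance of the first base from the start in bases; 1 line per gene; circles, NF-Y boxes; triangles, the 2 forms of the CHR-type element). Of the 62 NF-Y boxes, 42 lie in the 100 bases next to the start.

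Every mitosis gene was higher in the sham-treated tumours than in the healthy bladders, in both experiments. The median member read 4.08 in the healthy bladder and 8.46 in the sham-treated tumour of experiment 1, and 3.78 and 7.66 in experiment 2. Both tumour arrays exceeded both healthy arrays for all 43, as for 25.8% of all genes tested. In the fit 43 of 43 rose (28.6% of all genes tested did), by a median of 3.88 log2 beside a median of 0 over all genes. Adjusted p ran from 0.0024 to 0.0152 (limma), and the increases ran from 1.74 for Kif4 to 6.16 for Top2a. In the healthy bladders 21 members read below the filter level of 4.16 on both arrays, where a signal can hardly be told from background, so increases of these genes may be understated. These 21 passed the filter through the other arrays. The filter and the choice of probe set use the mean over all arrays, tumours included, so both favour a rise in the tumour. The fitted median was 3.54 with the mean of a gene's probe sets and 3.88 without the filter.

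**Figure D2:**
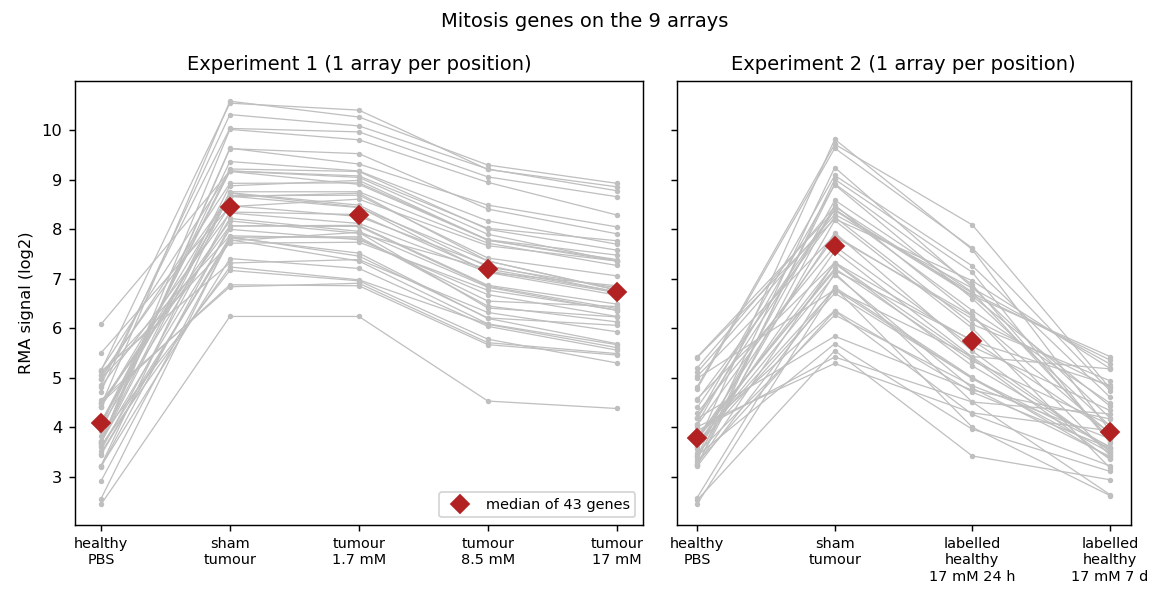
RMA signal (log2, y axis) of the 43 mitosis genes on each array of experiment 1 (left) and experiment 2 (right); each grey line is a gene and the diamonds are medians over the genes. The medians fall from 8.46 in the sham-treated tumour to 6.74 at 17 mM, stay above 4.08 in the healthy bladder, and read 5.74 on the array labelled 24 h.

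The increase was larger in experiment 1 for most members, by amounts that differed between genes, while their order was much the same. Top2a rose by 6.16 in both experiments, and Plk1 by 4.87 and 3.37. The median difference was 4.32 in experiment 1 (2.19 for Kif4 to 6.33 for Birc5) and 3.56 in experiment 2 (1.28 for Kif4 to 6.16 for Top2a), and 40 of 43 members had the larger difference in experiment 1. After all arrays were quantile-normalized together the medians were 4.13 and 3.80. Across the 43 members the 2 sets of differences had a Pearson r of 0.95, beside 0.96 across all genes tested. Genes are not independent replicates, and these correlations only describe the arrays.

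**Figure D3:**
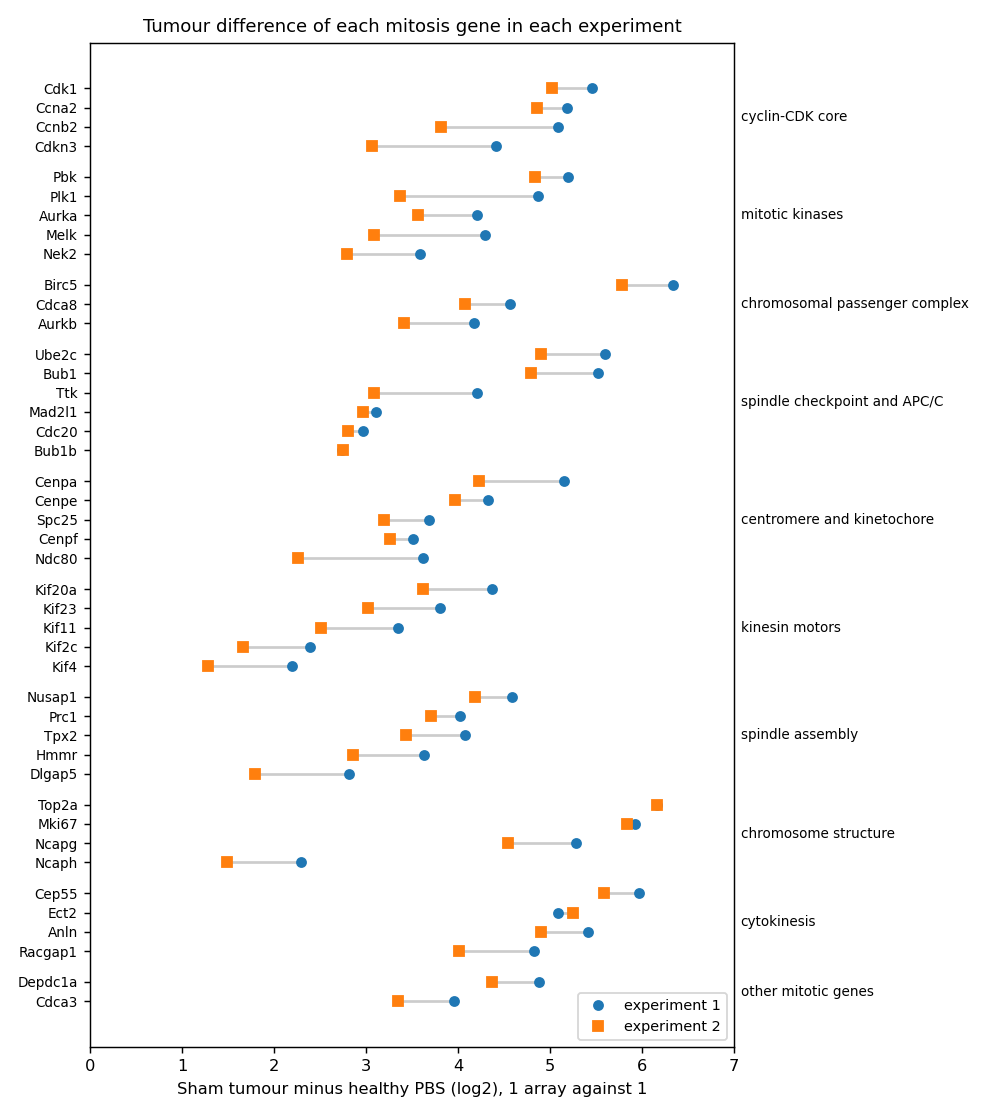
Difference between the sham-treated tumour and the healthy PBS array (log2, x axis) for each mitosis gene, grouped by role, in experiment 1 (circles) and experiment 2 (squares), 1 array against 1. Values run from 1.28 for Kif4 to 6.33 for Birc5, and 40 of 43 circles lie to the right of their squares.

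At 17 mM the mitosis genes were lower than in the sham-treated tumour, by amounts that varied little between genes. Within experiment 1 the 43 differences had a median of -1.66 and ran from -2.14 (Ncapg) to -1.10 (Cdc20), with an SD over genes of 0.22, whereas the tumour increases they followed had an SD of 1.07. In the fit 27 of 43 fell (10.6% of all genes tested fell), and the fitted median was -1.46, beside -0.04 over all genes. Adjusted p over the members ran from 0.0159 to 0.185. The 16 that did not pass had fitted differences of -1.57 to -1.15, within the range of -1.99 to -1.06 of those that passed. Their standard errors were larger, with a median of 0.36 against 0.20. In this fit a standard error follows from how far the tumour differences of the 2 experiments disagree. The median gap was 0.92 against 0.43 log2, so the gap and the standard error are not separate observations. The array at 17 mM lay below both sham-treated tumours for 39 members (22.2% of all genes), all but Kif4, Ncaph, Cdca3 and Nek2, and above both healthy bladders for all 43 (47.7%). Orders across the experiments, here and below, also carry the gap between experiments normalized apart. From experiment 1 to experiment 2 the sham-treated tumours differed by a median of -0.52 over all genes tested. For Kif4, Ncaph, Cdca3 and Nek2 they differed by -2.03, -1.42, -1.76 and -1.8.

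The count at 17 mM rests on the handling of the experiments. With no replicate block 7 members were called, 5 of them among the 27, and with all arrays quantile-normalized together 43 were called. Without the block, leaving out the sham-treated tumour of experiment 1 left 1 member called, leaving out that of experiment 2 left 16, and leaving out either healthy array left 4. The direction was the same for the median of the members under each of these settings. Counts over all genes under alternative settings, here and below, were not made. Member counts under those settings therefore do not set the mitosis genes apart from other genes.

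Cyclins and the kinase they activate start mitosis. Ccna2, a cyclin of S phase and early mitosis, read 4.86 in the healthy bladder and 10.04 in the sham-treated tumour of experiment 1, and 9.97, 9.06 and 8.66 in the tumours given 1.7, 8.5 and 17 mM. In experiment 2 it read 4.78 in the healthy bladder, 9.64 in the sham-treated tumour, 7.62 on the array labelled 24 h and 4.74 on that labelled 7 d. Healthy and tumour arrays were far apart, and 17 mM lay below both sham-treated tumours. Ccnb2, a cyclin that activates the mitotic kinase, read 3.68 in the healthy bladder and 8.76 in the sham-treated tumour of experiment 1, and 8.76, 7.72 and 7.27 in the tumours given 1.7, 8.5 and 17 mM. In experiment 2 its signal was 4.04 in the healthy bladder, 7.85 in the sham-treated tumour, 6.25 on the array labelled 24 h and 3.88 on that labelled 7 d. The 1.7 mM array equalled the sham-treated tumour, and the array at 7 d lay between the healthy arrays. All 4 measured genes of this group rose in the tumour, among them Cdk1, the kinase itself, by 5.24 (SE 0.15, adjusted p = 0.0024) and Ccna2 by 5.02 (SE 0.12, adjusted p = 0.0024). At 17 mM Ccna2 fell by 1.30 (SE 0.16, adjusted p = 0.0256) and Cdk1 by 1.56 (SE 0.20, adjusted p = 0.0251). Ccnb2, at -1.17 (SE 0.48, adjusted p = 0.168), and Cdkn3, a phosphatase that acts on CDKs, at -1.45 (SE 0.51, adjusted p = 0.13), did not pass.

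Pbk, a kinase of dividing cells, was the mitotic kinase with the highest mean over the arrays. It read 4.03 in the healthy bladder and 9.22 in the sham-treated tumour of experiment 1, and 9.17, 8.0 and 7.58 in the tumours given 1.7, 8.5 and 17 mM. Experiment 2 gave 4.07 in the healthy bladder, 8.90 in the sham-treated tumour, 6.6 on the array labelled 24 h and 4.03 on that labelled 7 d. The healthy PBS arrays and the 7 d array read nearly the same, and all tumours lay far above them. All 5 kinases rose in the tumour: Pbk by 5.01 (SE 0.13, adjusted p = 0.0024), Plk1, the polo-like kinase of mitotic entry and exit, by 4.12 (SE 0.43, adjusted p = 0.00684), and Aurka, the kinase of spindle poles, by 3.88 (SE 0.20, adjusted p = 0.00267). Melk and Nek2, a centrosome kinase, rose by 3.68 and 3.18. At 17 mM Pbk fell by 1.55 (SE 0.18, adjusted p = 0.0219) and Aurka by 1.70 (SE 0.26, adjusted p = 0.0331). Plk1 was at -1.30 (SE 0.56, adjusted p = 0.185), Melk at -1.46 and Nek2 at -1.38, and these did not pass.

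The chromosomal passenger complex corrects faulty attachments of chromosomes to the spindle. Its survivin subunit Birc5 read 3.69 in the healthy bladder and 10.02 in the sham-treated tumour of experiment 1, and 9.81, 8.95 and 8.29 in the tumours given 1.7, 8.5 and 17 mM. On the arrays of experiment 2 it read 3.23 in the healthy bladder, 9.01 in the sham-treated tumour, 7.13 on the array labelled 24 h and 3.69 on that labelled 7 d. The 7 d array matched the healthy bladder of experiment 1 and lay above that of experiment 2, and the tumours stood far above both. Birc5 rose by 6.06 (SE 0.18, adjusted p = 0.0024) in the tumour, Cdca8, the borealin subunit, by 4.32 (SE 0.16, adjusted p = 0.0024) and the kinase Aurkb by 3.79 (SE 0.23, adjusted p = 0.00319). At 17 mM Birc5 fell by 1.59 (SE 0.23, adjusted p = 0.0307) and Cdca8 by 1.77 (SE 0.21, adjusted p = 0.0239), and Aurkb was at -1.35 (SE 0.30, adjusted p = 0.0598). Between 8.5 and 17 mM Birc5 had the largest step down of the members, -0.66.

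The spindle checkpoint holds the cell in metaphase, and the anaphase-promoting complex (APC/C) with Cdc20 and the ubiquitin-conjugating enzyme Ube2c releases it. Ube2c read 4.72 in the healthy bladder and 10.32 in the sham-treated tumour of experiment 1, and 10.09, 9.22 and 8.78 in the tumours given 1.7, 8.5 and 17 mM. In experiment 2 the values were 4.19 in the healthy bladder, 9.09 in the sham-treated tumour, 7.26 on the array labelled 24 h and 4.61 on that labelled 7 d. Cdc20 read 5.50 in the healthy bladder and 8.46 in the sham-treated tumour of experiment 1, and 8.61, 7.67 and 7.36 in the tumours given 1.7, 8.5 and 17 mM. The second experiment gave 5.41 in the healthy bladder, 8.21 in the sham-treated tumour, 6.96 on the array labelled 24 h and 5.19 on that labelled 7 d. Cdc20 was slightly above the sham-treated tumour at 1.7 mM, and its plain difference between 17 mM and the sham-treated tumour, -1.10, was the smallest among the members. All 6 genes rose in the tumour, from Bub1b by 2.74 (SE 0.09, adjusted p = 0.0024) to Ube2c by 5.25 (SE 0.21, adjusted p = 0.0024). At 17 mM the checkpoint kinase Bub1 fell by 1.74 (SE 0.29, adjusted p = 0.0379), its relative Bub1b by 1.35 (SE 0.12, adjusted p = 0.018), Mad2l1, a part of the checkpoint's inhibitor, by 1.38 (SE 0.13, adjusted p = 0.0186) and Cdc20 by 1.06 (SE 0.13, adjusted p = 0.0243). Ube2c at -1.36 (SE 0.28, adjusted p = 0.0525) and the checkpoint kinase Ttk at -1.57 (SE 0.43, adjusted p = 0.0847) did not pass.

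Centromere and kinetochore genes link chromosomes to microtubules. Cenpf, a large kinetochore protein, read 4.82 in the healthy bladder and 8.33 in the sham-treated tumour of experiment 1, and 8.12, 7.13 and 6.86 in the tumours given 1.7, 8.5 and 17 mM. In experiment 2 Cenpf read 5.20 in the healthy bladder, 8.46 in the sham-treated tumour, 6.66 on the array labelled 24 h and 5.43 on that labelled 7 d. With 2 other members, it was not lower in the sham-treated tumour of experiment 2 than in that of experiment 1. Cenpe, a kinesin of the kinetochore, read 4.41 in the healthy bladder and 8.73 in the sham-treated tumour of experiment 1, and 8.45, 7.13 and 6.67 in the tumours given 1.7, 8.5 and 17 mM. Its values in experiment 2 were 3.60 in the healthy bladder, 7.56 in the sham-treated tumour, 5.42 on the array labelled 24 h and 3.54 on that labelled 7 d, where the 7 d array was the lowest of the 9. All 5 measured genes of the group rose in the tumour, Cenpa, the histone variant of centromeres, by 4.68 (SE 0.27, adjusted p = 0.00306) and Cenpe by 4.14 (SE 0.13, adjusted p = 0.0024). At 17 mM Cenpe fell by 1.97 (SE 0.18, adjusted p = 0.0184), Cenpf by 1.41 (SE 0.15, adjusted p = 0.0206) and Spc25, of the Ndc80 complex, by 1.31 (SE 0.21, adjusted p = 0.0363). Cenpa and Ndc80, both at -1.29, did not pass.

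The kinesin motors had the smallest increases of the role groups, with a median of 2.92. Kif4, a chromosome-bound motor, read 5.13 in the healthy bladder and 7.32 in the sham-treated tumour of experiment 1, and 7.39, 6.32 and 5.93 in the tumours given 1.7, 8.5 and 17 mM. In experiment 2 it read 4.01 in the healthy bladder, 5.29 in the sham-treated tumour, 4.29 on the array labelled 24 h and 3.93 on that labelled 7 d. Its healthy array in experiment 1 was just below the sham-treated tumour of experiment 2, and the 17 mM array was above that tumour. Both are orders across experiments normalized apart. Kif11, the motor that pushes spindle poles apart, read 3.83 in the healthy bladder and 7.17 in the sham-treated tumour of experiment 1, and 6.96, 5.78 and 5.30 in the tumours given 1.7, 8.5 and 17 mM. Experiment 2 gave Kif11 3.85 in the healthy bladder, 6.36 in the sham-treated tumour, 4.71 on the array labelled 24 h and 3.58 on that labelled 7 d. The tumours of both experiments stood clear of the healthy arrays. Kif2c, which takes microtubules apart, read 4.49 in the healthy bladder and 6.88 in the sham-treated tumour of experiment 1, and 6.86, 5.67 and 5.46 in the tumours given 1.7, 8.5 and 17 mM. Its signal in experiment 2 was 4.18 in the healthy bladder, 5.84 in the sham-treated tumour, 4.75 on the array labelled 24 h and 4.17 on that labelled 7 d. Kif20a, a motor of cytokinesis, read 3.47 in the healthy bladder and 7.84 in the sham-treated tumour of experiment 1, and 7.85, 6.45 and 6.13 in the tumours given 1.7, 8.5 and 17 mM. The arrays of experiment 2 gave 3.21 in the healthy bladder, 6.83 in the sham-treated tumour, 5.01 on the array labelled 24 h and 3.38 on that labelled 7 d. All 5 rose in the tumour, Kif4 by 1.74 (SE 0.27, adjusted p = 0.0152), Kif2c by 2.02 (SE 0.22, adjusted p = 0.00753) and Kif20a by 4.0 (SE 0.23, adjusted p = 0.00292). At 17 mM Kif11 fell by 1.66 (SE 0.33, adjusted p = 0.0482), Kif20a by 1.52 (SE 0.30, adjusted p = 0.0482) and Kif23, a motor of the central spindle, by 1.66 (SE 0.31, adjusted p = 0.0444). Kif2c at -1.24 (SE 0.29, adjusted p = 0.0656) and Kif4 at -1.16 (SE 0.35, adjusted p = 0.103) did not pass.

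Among the spindle assembly genes Prc1, which bundles microtubules of the central spindle, read 5.16 in the healthy bladder and 9.18 in the sham-treated tumour of experiment 1, and 9.05, 7.90 and 7.36 in the tumours given 1.7, 8.5 and 17 mM. In experiment 2 Prc1 read 4.55 in the healthy bladder, 8.25 in the sham-treated tumour, 6.08 on the array labelled 24 h and 4.94 on that labelled 7 d. The 7 d array lay between the healthy arrays, and 17 mM lay below both sham-treated tumours. All 5 rose in the tumour, Prc1 by 3.86 (SE 0.12, adjusted p = 0.0024) and Dlgap5 least, by 2.30 (SE 0.30, adjusted p = 0.0104). At 17 mM Prc1 fell by 1.74 (SE 0.16, adjusted p = 0.019), Nusap1, a microtubule-binding protein, by 1.79 (SE 0.19, adjusted p = 0.0206) and Tpx2, the activator of Aurora A, by 1.59 (SE 0.26, adjusted p = 0.0368). Hmmr at -1.42 (SE 0.31, adjusted p = 0.0566) and Dlgap5 at -1.18 (SE 0.39, adjusted p = 0.12) did not pass.

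Genes of chromosome structure untangle, condense and coat mitotic chromosomes. Top2a, the topoisomerase that untangles sister DNA, read 4.43 in the healthy bladder and 10.59 in the sham-treated tumour of experiment 1, and 10.27, 9.30 and 8.93 in the tumours given 1.7, 8.5 and 17 mM. On the arrays of experiment 2 Top2a read 3.66 in the healthy bladder, 9.82 in the sham-treated tumour, 7.59 on the array labelled 24 h and 3.93 on that labelled 7 d. Its tumour difference was 6.16 in both experiments. Mki67, the coat protein of mitotic chromosomes used as a proliferation marker, read 3.72 in the healthy bladder and 9.64 in the sham-treated tumour of experiment 1, and 9.32, 8.49 and 8.05 in the tumours given 1.7, 8.5 and 17 mM. For experiment 2 the values were 3.41 in the healthy bladder, 9.25 in the sham-treated tumour, 6.83 on the array labelled 24 h and 4.19 on that labelled 7 d. The 7 d array lay above both healthy arrays. Ncapg, a condensin subunit, read 2.55 in the healthy bladder and 7.83 in the sham-treated tumour of experiment 1, and 7.52, 6.20 and 5.69 in the tumours given 1.7, 8.5 and 17 mM. In the second experiment Ncapg read 2.58 in the healthy bladder, 7.12 in the sham-treated tumour, 4.51 on the array labelled 24 h and 2.64 on that labelled 7 d. Its partner Ncaph read 4.55 in the healthy bladder and 6.84 in the sham-treated tumour of experiment 1, and 6.91, 5.71 and 5.49 in the tumours given 1.7, 8.5 and 17 mM. In experiment 2 Ncaph read 3.93 in the healthy bladder, 5.42 in the sham-treated tumour, 4.51 on the array labelled 24 h and 4.27 on that labelled 7 d. The array labelled 24 h lay below the healthy bladder of experiment 1 for Ncaph. The 4 genes rose in the tumour, Top2a by 6.16 (SE 0.09, adjusted p = 0.0024), Mki67 by 5.88 (SE 0.09, adjusted p = 0.0024), Ncapg by 4.91 (SE 0.22, adjusted p = 0.00253) and Ncaph by 1.89 (SE 0.24, adjusted p = 0.00998). At 17 mM Top2a fell by 1.66 (SE 0.12, adjusted p = 0.0159), Mki67 by 1.57 (SE 0.12, adjusted p = 0.0161) and Ncapg by 1.96 (SE 0.30, adjusted p = 0.0322), and Ncaph was at -1.15 (SE 0.32, adjusted p = 0.086).

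Cytokinesis genes separate the daughter cells. Anln, the anillin scaffold of the contractile ring, read 5.14 in the healthy bladder and 10.55 in the sham-treated tumour of experiment 1, and 10.41, 9.21 and 8.86 in the tumours given 1.7, 8.5 and 17 mM. In experiment 2 Anln read 4.82 in the healthy bladder, 9.72 in the sham-treated tumour, 8.09 on the array labelled 24 h and 4.79 on that labelled 7 d. The 7 d array lay just below both healthy arrays, and the array labelled 24 h lay well above them. All 4 rose in the tumour, Cep55, a protein of the midbody, by 5.78 (SE 0.14, adjusted p = 0.0024), Anln by 5.16 (SE 0.17, adjusted p = 0.0024), Ect2, which activates RhoA at the cell equator, by 5.16 (SE 0.10, adjusted p = 0.0024) and Racgap1, its partner, by 4.42 (SE 0.24, adjusted p = 0.00278). At 17 mM Ect2 fell by 1.82 (SE 0.13, adjusted p = 0.0159), Cep55 by 1.62 (SE 0.18, adjusted p = 0.0219) and Anln by 1.56 (SE 0.22, adjusted p = 0.0294), and Racgap1 was at -1.43 (SE 0.32, adjusted p = 0.0597).

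The remaining members were Cdca3 and Depdc1a. Cdca3, an adaptor for the degradation of mitotic inhibitors, read 4.98 in the healthy bladder and 8.93 in the sham-treated tumour of experiment 1, and 8.94, 7.79 and 7.48 in the tumours given 1.7, 8.5 and 17 mM. In experiment 2 Cdca3 read 3.83 in the healthy bladder, 7.17 in the sham-treated tumour, 5.76 on the array labelled 24 h and 3.90 on that labelled 7 d. Its 17 mM array was above the sham-treated tumour of experiment 2, an order across experiments normalized apart. Depdc1a read 2.91 in the healthy bladder and 7.79 in the sham-treated tumour of experiment 1, and 7.36, 6.09 and 5.67 in the tumours given 1.7, 8.5 and 17 mM. On the other 4 arrays Depdc1a read 2.45 in the healthy bladder, 6.82 in the sham-treated tumour, 4.0 on the array labelled 24 h and 2.62 on that labelled 7 d. Both rose in the tumour, by 3.64 and 4.62. At 17 mM Depdc1a fell by 1.99 (SE 0.22, adjusted p = 0.0215), the largest fitted decrease of the members, and Cdca3 fell by 1.30 (SE 0.25, adjusted p = 0.0473).

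Between the doses the step was from 1.7 to 8.5 mM. At 1.7 mM the 43 differences from the sham-treated tumour of experiment 1 had a median of -0.13, with 30 members lower (50.3% of all genes), 11 higher and 2 equal, and ran from -0.43 (Depdc1a) to 0.17 (Aurkb). limma called 0 members at 1.7 mM (0.0% of all genes), and 0 had an unadjusted p under 0.05 (1595 of 11969 genes tested did). The fitted median at 1.7 mM was 0.01, and it was 0.69 without the sham-treated tumour of experiment 1 and the block. At 8.5 mM the median was -1.22, from -1.71 (Kif23) to -0.79 (Cdc20). In the fit 12 of 43 fell (4.65% of all genes tested), with a fitted median of -1.09 and adjusted p of 0.0268 to 0.363. limma called 0 at 8.5 mM with no replicate block (6 at an unadjusted p under 0.05) and 40 with joint normalization, and the fitted median without the sham-treated tumour of experiment 1 was -0.63. Among those that fell at 8.5 mM were Cenpe by 1.51 (SE 0.18, adjusted p = 0.0317) and Top2a by 1.29 (SE 0.12, adjusted p = 0.0268). All 43 read lower at 17 than at 8.5 mM, as did 47.5% of all genes, by a median of -0.42 (-0.66 for Birc5 to -0.11 for Dlgap5). limma called 0 of these (0.0% of all genes), and the adjusted p was 0.99 throughout. An unadjusted p under 0.05 was reached by 3 members and by 338 of 11969 genes tested. Between 1.7 and 8.5 mM all 43 were also lower (53.3% of all genes), by a median of -1.15. limma called 0 of 43 (0.0% of all genes), and the lowest adjusted p was 0.0822. Here 34 members had an unadjusted p under 0.05, as did 3101 of 11969 genes tested. With joint normalization 30 were called for that step.

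**Figure D4:**
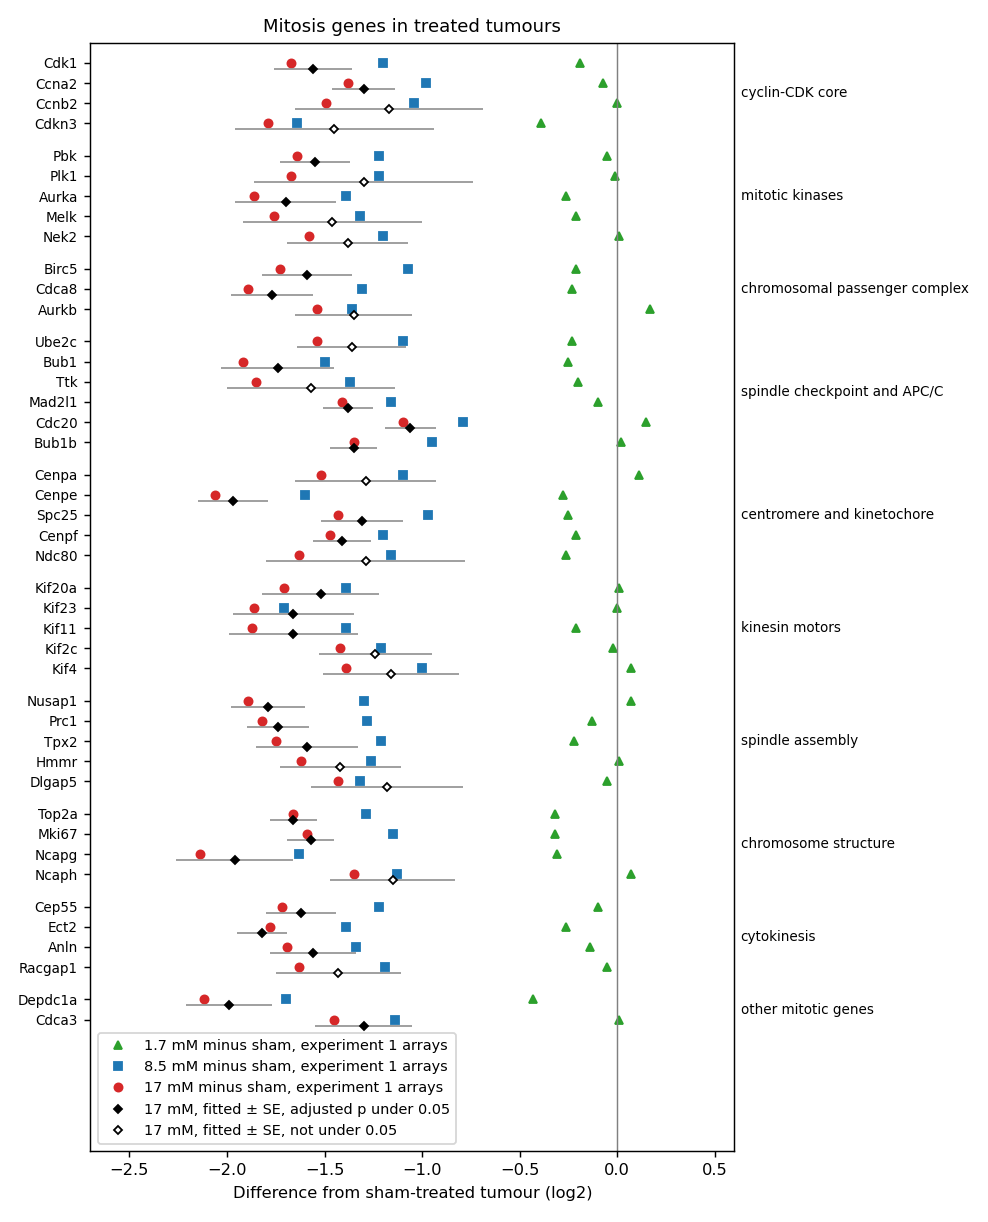
Difference from the sham-treated tumour (log2, x axis) for each mitosis gene, by role: triangles, squares and circles are plain differences between the experiment 1 arrays at 1.7, 8.5 and 17 mM, and diamonds with bars are the fitted 17 mM difference ± SE, filled where the adjusted p was under 0.05. At 17 mM the circles lie between -2.14 and -1.10, and 27 of 43 diamonds are filled.

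Part of the tumour excess stayed at each dose. The share kept is the linear signal above the healthy bladder, as a percentage of the excess in the sham-treated tumour from that experiment, and each share rests on 3 single arrays. The median share was 90.8% at 1.7 mM (73.3% for Depdc1a to 113.2% for Aurkb), 38.0% at 8.5 mM (25.2% for Kif23 to 51.6% for Cdc20) and 27.0% at 17 mM (19.4% for Kif11 to 38.8% for Cdc20). The quartiles of the members were 23.7% and 30.1% at 17 mM. By role the cyclin-CDK core kept the most, 31.7%, with Ccna2 at 36.7% and Ccnb2 at 33.6%, and the kinesin motors kept the least, 21.9%. Cenpe, at 20%, and Depdc1a, at 20.3%, were next to Kif11 at the low end. The other 555 tumour-high genes had medians of 80.6%, 41.7% and 28.2% at the 3 doses, with quartiles of 20.9% and 39.6% at 17 mM, so the median mitosis gene lay inside their middle range. On the log2 scale the median share was 69.2% at 8.5 mM and 59.4% at 17 mM.

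**Figure D5:**
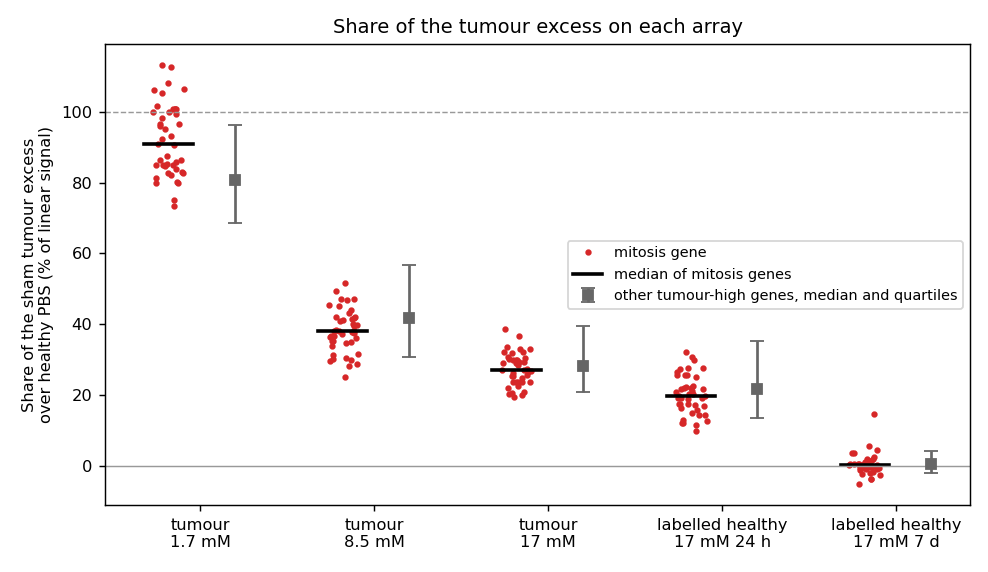
Share of the sham-treated tumour's excess over healthy PBS (percent of linear signal, y axis) on each treated array: red points are the 43 mitosis genes, black bars their medians, and grey squares with bars the median and quartiles of the other tumour-high genes. The medians are 90.8%, 38.0% and 27.0% at 1.7, 8.5 and 17 mM, and 19.9% and 0.4% on the arrays labelled 24 h and 7 d.

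The tumour at 17 mM still held more mitotic transcript than the healthy bladder. In the fit 20 of 43 members were higher than in healthy PBS (2.61% of all genes) and 0 were lower (0.368%), with a median of 2.35 and values from 0.57 for Kif4 to 4.5 for Top2a. Cep55 was 4.15 (SE 0.18, adjusted p = 0.0364) higher and Mki67 4.31 (SE 0.12, adjusted p = 0.0364) higher. With no replicate block 37 were called, and with joint normalization 39.

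In the bladders labelled healthy the mitosis genes read higher on the 24 h array than on the 7 d array in the median, 5.74 against 3.90. At 7 d the median difference from the healthy PBS array of experiment 2 was 0.07, 24 of 43 members were higher, and 42 lay within 0.5 log2, as did 91.9% of all genes. Mki67, 0.78 higher, was the exception. On the healthy array 28 members read below the filter level of 4.16, and on the 7 d array 26 did, so a decrease of these could hardly be seen. limma called 0 of 43 at 7 d (0.0% of all genes), with a lowest adjusted p of 0.488. Among the members 1 had an unadjusted p under 0.05 (1096 of 11969 genes tested did). This was Mki67 at a fitted 0.80 (SE 0.12, adjusted p = 0.488).

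On the array labelled healthy, 17 mM, 24 h, the median member was 1.56 above the healthy and 1.86 below the sham-treated tumour of its experiment. The array exceeded both healthy arrays for 41 members (14.6% of all genes), all but Kif4 and Ncaph. Against healthy PBS 36 of 43 members had an unadjusted p under 0.05 (limma), as did 2503 of 11969 genes tested. limma called 0 of the 43 (0.0% of all genes), with a lowest adjusted p of 0.0568. The count was 17 with no replicate block and 35 with joint normalization. Against the sham-treated tumour 35 of 43 were lower (13.6% of all genes), by a fitted median of -2.03, from -2.95 (Depdc1a) to -1.11 (Ncaph). The share of the tumour excess on that array was 19.9% in the median (9.8% for Depdc1a to 32.3% for Cdc20), beside 21.8% for 647 other tumour-high genes. The summed linear signal of the 12 urothelial markers lay between as well, at 14909, against 21392 in the healthy bladder and 5509 in the sham-treated tumour of experiment 2. Sums of macrophage (4161), neutrophil (440), T and NK cell (221) and basal epithelial markers (4070) were also between those 2 arrays, with that of B cells (42). Sums of smooth muscle (20814, against 17775 and 6421), fibroblast (12990, against 6963 and 4384) and endothelial markers (351, against 270 and 220) were above both, and that of erythroid markers (4131, against 4399 and 7411) was below both. Whether this bladder held tumour cells, or changed with the treatment, was not tested.

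The change at 17 mM in tumours was set against the change 7 d after 17 mM in healthy bladders, as a difference of differences. limma called 3 of 43 members lower (0.443% of all genes) and 0 higher (2.76%). Those lower were Mki67 at -2.37, Ect2 at -1.97 and Top2a at -1.93, with Ect2 at the edge of the threshold and the lowest adjusted p at 0.0492. All 43 values were negative, with a median of -1.71. Of them 33 had an unadjusted p under 0.05, as did 3796 of 11969 genes tested. The count called was 0 with no replicate block (12 at an unadjusted p under 0.05) and 0 without the filter (33). It was 7 with the mean of a gene's probe sets and 33 with joint normalization. The median was -1.11 without the sham-treated tumour of experiment 1. All 3 genes read below the filter level in the healthy bladder of experiment 2, so a fall there could hardly register and the test says little about the healthy arm. Part of the Mki67 value is its fitted 0.80 at 7 d. The arms also differ in experiment and schedule, with tumours sampled on day 12 after the last of 5 instillations on day 11, and healthy bladders 7 d after instillation.

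Genes of neighbouring pathways, from lists written with earlier results of these data known, gave the following counts, to be read beside the shares over all genes tested, of which 28.6% rose and 28.6% fell in the tumour and 15.7% rose and 10.6% fell at 17 mM. Of 42 further mitotic genes that were tested, 39 rose in the tumour and 21 fell at 17 mM, among them Cdca5, which protects sister cohesion, by 2.08 (SE 0.12, adjusted p = 0.0159), Kntc1, a checkpoint protein, by 1.91 and Iqgap3 by 1.84. All 26 DNA replication genes rose in the tumour and 21 fell at 17 mM, with Tk1, a thymidine kinase, and Gmnn, the licensing inhibitor geminin, both falling by 1.9, and Cdc45 by 1.73. Of 17 G1 cyclins, CDKs and E2Fs, 15 rose and 1 fell in the tumour, and 7 fell and 1 rose at 17 mM, with E2f8, a repressor, down by 1.73, Cks1b by 1.25 and Cks2 by 1.22. Of 14 cohesin and condensin genes 8 rose and 1 fell in the tumour, and 5 fell at 17 mM, led by Ncapd2 (-1.58), Smc2 (-1.42) and Smc4 (-1.34).

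The remaining lists hold regulators of the cycle, with members called in both directions. Of 13 APC/C genes 8 rose and 1 fell in the tumour, and 4 fell at 17 mM, with Fbxo5, the inhibitor Emi1, at -1.49, Ube2s at -0.88 and Cdc27 at -0.86. Of 15 DREAM and MuvB regulators 10 rose and 3 fell in the tumour. At 17 mM 1 of them rose, Tfdp2, a partner of E2F factors, by 1.82 (SE 0.15, adjusted p = 0.0173), and 1 fell, Rbbp4, a subunit of MuvB, by 0.85 (SE 0.14, adjusted p = 0.0353). The list median at 17 mM was -0.43, beside -1.46 for the mitosis genes. Of 6 CDK inhibitors 3 rose and 2 fell in the tumour. At 17 mM 1 of them rose, Cdkn2b by 1.69, and 3 fell, among them Cdkn2c by 1.13 and Cdkn2d by 1.04.

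Markers of other cell types changed in the same comparisons, some in the opposite direction to the mitosis genes. Over all genes tested 28.6% rose and 28.6% fell in the tumour, and 15.7% rose and 10.6% fell at 17 mM. Of 12 urothelial markers 11 fell in the tumour and 10 rose at 17 mM, and their summed linear signal was 21392 to 28465 in healthy bladders, 5509 to 8039 in sham-treated tumours and 18611 at 17 mM. All 8 smooth muscle markers fell in the tumour and all 8 rose at 17 mM, with sums of 17775 to 19649, 6421 to 9983 and 30837. Of 6 tested fibroblast markers 3 fell in the tumour and 5 rose at 17 mM (sums of 6963 to 9584, 4384 to 6664 and 19500). Of 10 macrophage markers 9 rose in the tumour, and 1 rose and 1 fell at 17 mM (sums of 1125 to 1689, 5022 to 8624 and 7460). Of 4 tested neutrophil markers 3 rose in the tumour and 3 fell at 17 mM, with sums of 104 to 183, 1520 to 2900 and 738. Of 7 tested T and NK cell markers 5 rose in the tumour and 2 fell at 17 mM (sums of 170 to 222, 397 to 708 and 363). Of 6 basal epithelial markers 3 rose and 3 fell in the tumour, and 3 rose and 2 fell at 17 mM. Of 6 endothelial markers 1 rose and 1 fell in the tumour, and 3 rose at 17 mM. Of 4 erythroid markers 3 rose in the tumour and 1 fell at 17 mM, and the 1 tested B cell marker passed in neither. Their part in the mitotic values was not tested.

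The members shared a common pattern over the arrays. After each experiment's mean was removed, each member was correlated with the mean of the other members over the 9 arrays. These correlations had a median of 0.993, were lowest for Kif4, at 0.937, and reached 0.99 for 29 members. Outside the list 119 genes reached 0.99 with the mean of all members. The 5 most alike were Dbf4, the activator of the Cdc7 kinase, at 0.9995, Tcf19 at 0.9992, Ptpn22, a tyrosine phosphatase, at 0.9989, Plk4, the kinase of centriole duplication, at 0.9989, and Xlr at 0.9985. These correlations describe 9 arrays that are dominated by the difference between tumour and healthy bladder. For Dbf4 the signal was 5.29 in the healthy bladder, 8.98 in the sham-treated tumour and 7.57 at 17 mM in experiment 1.

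The 21 members with several probe sets had 29 further ones that named the same gene. Of these 28 were lower at 17 mM than in the sham-treated tumour of experiment 1. The exception at 17 mM was a probe set of Nek2. The differences of the 28 ran from -2.03 (Hmmr) to -0.02 (Kif23), beside a median of -0.06 over all genes. Of the 29, 14 rose 2-fold or more from healthy bladder to sham-treated tumour on the arrays of both experiments. The others lacked that rise in at least 1 experiment, so a small decrease there says little. How many of all probe sets were lower at 17 mM was not counted, so the 28 do not measure agreement between probe sets. Probe sets of a gene share the RNA of the same bladder and are no replicates.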

How the data were processed

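Deposited values were log2 RMA signals of 45077 probe sets on 9 Affymetrix mouse PM arrays, for which the submitters' processing notes name RMA and Transcriptome Analysis Console 4.0.1.36. The genome build is not given in the sources used here. By the array annotation 28898 probe sets named 1 gene, 551 several and 15588 none, and 28689 were matched by Entrez number. The probe set with the highest mean stood for a gene, and the lowest 30% of genes by mean were left out, which kept 11969 of 17097.

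Differences were fitted with limma 3.58.1 (R 4.3.3, lmFit and eBayes) over all 9 arrays, with the labels' experiment number as a block. Same-numbered deviations from the group means correlated at 0.647, and sorted values differed by 0.022 log2 within and 0.329 between experiments. The fit left 1 residual degree of freedom, with 2.23 prior ones, and single arrays were assumed to vary like the PBS arrays. The code was tested on simulated data. Alternatives were no block, joint quantile normalization, other filters, mean probe sets, a variance trend and left-out arrays.

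Members and lists were chosen with earlier results of these data known. By a fixed rule, values on all arrays are given for the member with the highest mean in each role group and for the 3 highest and 3 lowest in the tumour difference, the 17 mM difference and the share kept. Of each pathway list, up to 3 passing genes with the largest 17 mM differences are named, and of all other genes the 5 most like the members. Other tumour-high genes exceeded healthy PBS by 2 log2 or more in the tumour of the experiment not used for the share and by 1 or more in that used for it. Python 3.11.15 with pandas 2.3.3, numpy 2.4.6 and matplotlib 3.10.9 was used for summaries.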

Additional observations from a re-analysis of the deposited data

Results flagged for a closer look

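The change at 17 mM in tumours and the change at 7 d in healthy bladders gave a difference of differences with an adjusted p under 0.05 for 3 mitosis genes (limma). Mki67 stood at -2.37, Ect2 at -1.97 and Top2a at -1.93 log2, and 0.0492 was the lowest adjusted p. All 3 read below the filter level of 4.16 in the healthy bladder of experiment 2, where a fall could hardly register. These values therefore do not show that the tissues respond differently. For Ect2 and Top2a they mostly restate the fall in the tumour (-1.82 and -1.66), with fitted values of 0.15 and 0.27 at 7 d. For Mki67 they combine -1.57 in the tumour with 0.80 at 7 d. The treated groups have 1 array each, so the tests rest on the spread of the PBS arrays. No group has the 4 arrays that a check for single outlying arrays needs.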

How the results depend on the processing

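The tumour increase held under every setting tried. All 43 members were called with and without the replicate block and with joint quantile normalization, 31 of 31 with the lowest 50% of genes left out, and 42 of 42 with mean probe sets. Leaving out single PBS arrays gave 41 to 43. Over all results and settings 310 values stayed close to the reported one, meaning a count within 1.5 times it, or a median within 0.54 log2, the spread between the experiments, or a share within 11.8 points. Of the others 22 passed more members, 15 passed fewer and 13 moved. Fits without a treated array count among the close values. Each treated array is the only one of its group, so leaving it out could not change comparisons that do not use it. Those values say nothing on stability. Close values can still change sign near 0. When single arrays were left out, close medians ran from -0.19 to 0.71 at 7 d and from -0.13 to 0.47 at 1.7 mM. The median of 0.69 at 1.7 mM, without the sham-treated tumour of experiment 1 and the block, counts as moved. No comparison with members called in the main fit changed the sign of its median. The cause of the shifts that follow was not tested. Calls over all genes under these settings were not counted, so shifts in the member counts may be shared by other genes.

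The replicate block is the experiment number that the labels give. With no replicate block 7 members were called at 17 mM, 0 at 8.5 mM, 37 for 17 mM against healthy PBS, 17 for 24 h against healthy PBS and 0 in the difference of differences, whose median was then -1.12. With joint quantile normalization the counts were 43 at 17 mM, 40 at 8.5 mM, 30 between 8.5 and 1.7 mM, 39 for 17 mM against healthy PBS, 35 for 24 h against healthy PBS and 33 in the difference of differences. For 24 h against healthy PBS the count was 9 of 31 members with the lowest 50% left out, 7 with mean probe sets and 11 with a variance trend. In the difference of differences it was 0 with no filter, 9 with the lowest 50% left out, 7 with mean probe sets and 9 with a variance trend. On the log2 scale the share kept was 69.2% at 8.5 mM and 59.4% at 17 mM.

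Leaving out 1 PBS array with the block left no residual degree of freedom, so it gave values only. The median of the members for 24 h against healthy PBS was then 1.56 without the healthy array of experiment 1 and 2.32 without that of experiment 2. In the difference of differences the median was -1.11 without the sham-treated tumour of experiment 1 and -2.45 without the healthy array of experiment 2. Without the block, leaving out 1 PBS array gave 1 to 16 calls at 17 mM (4 without either healthy array), 0 at 8.5 mM, 0 to 1 at 1.7 mM, 30 to 38 for 17 mM against healthy PBS (32 without the healthy array of experiment 1), 12 to 17 for 24 h against healthy PBS (14 without the healthy array of experiment 2) and 0 to 2 in the difference of differences. The medians without the sham-treated tumour of experiment 1 were -0.89 at 17 mM, -0.51 at 8.5 mM, 0.69 at 1.7 mM and -0.76 in the difference of differences. The median was 2.92 for 17 mM against healthy PBS without the healthy array of experiment 1, -2.81 for 24 h against the sham-treated tumour without that tumour of experiment 2, and -1.01 in the difference of differences without the healthy array of experiment 2.

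With 1 array for each treated group, p-values carry no spread between treated bladders. Signals near background in healthy bladders limit how large an increase can be read.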
